A study of Mus musculus with 14 samples.

Results

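The cytosolic ribosomal protein genes encode the proteins of the ribosome that works in the cytosol. They were taken as the protein-coding mouse genes whose symbol is Rpl or Rps followed by a number, with an optional a, l or x suffix, plus Rplp0, Rplp1, Rplp2, Rpsa and Fau; pseudogenes and the Rps6k kinases were left out. The rule found 82 of 21887 protein-coding genes. It used no measured value, although it was set with earlier results of these data known. Of the 82, 32 belong to the small subunit, 47 to the large subunit and 3 to the stalk of the large subunit. Their median length was 3169 bp, against 17169 bp over all protein-coding genes, and 29 of them (35.37%) contained an annotated small nucleolar RNA gene, against 1.7% of all genes.

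The study profiled mouse embryonic stem cells by chromatin immunoprecipitation and sequencing. All cells, controls included, were blastocyst-derived, of strain C57BL/6J and genotype Mll1fl/fl; Cre-ER TM, that is, with floxed Mll1 alleles and a Cre recombinase that 4-hydroxytamoxifen (4-OHT) switches on. They were kept on Matrigel without feeders in LIF, 5% serum and 15% KSR, and were untreated, or received MM401 (written MM-401 below; an inhibitor of Mll1) at 100 µM or 4-OHT at 5 µM for 9 days and 3 passages. The untreated libraries are listed with day 0 and 0 passages, so days in culture and passages cannot be told apart from either treatment. Mll1 was precipitated only from untreated cells, so the lists hold no measure of how much Mll1 remained after either treatment, and each antibody and condition had 1 library. No difference below therefore has a replicate check, no test between conditions was possible, and the intervals given cover counting error only. Both treated sets were compared with the same untreated libraries, so their values stand side by side and are not independent of each other.

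Mll1 is a methyltransferase that places methyl groups on lysine 4 of histone H3. The trimethyl form, H3K4me3, marks the starts of active genes, the dimethyl form, H3K4me2, spreads around them, and the monomethyl form, H3K4me1, is known from enhancers and from the flanks of promoters. Ribosomal protein genes are housekeeping genes, transcribed at a high and coordinated rate in growing cells. Many are known for a start inside a run of pyrimidines, from which the messenger RNA takes its 5′ terminal oligopyrimidine tract, the element through which mTOR signalling controls their translation. Several host small nucleolar RNAs in their introns.

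Promoter sequence was at hand for 62 members in the RefSeq table (GRCm38.p6, the build called mm10); Rpl17, Rpl21, Rpl23a, Rpl29, Rpl3, Rpl30, Rpl32, Rpl36, Rpl7, Rpl8, Rplp1, Rps14, Rps20, Rps27a and Rps29 are among those named only. The 6 windows below run from 100 bases before the annotated start to the first 20 bases of the transcript, 5′ to 3′ on the gene's strand, with the start at base 101. Rps13, Rpl14 and Rpl19 are shown because their start lay under an Mll1 peak, Rpl28 and Rplp2 for their pyrimidine start, and Rpl10l, a paralog with an l suffix and little methylation, for contrast. Capitals mark matches to the searched motifs and the unbroken run of pyrimidines across the start where it held at least 5 bases.
Rps13: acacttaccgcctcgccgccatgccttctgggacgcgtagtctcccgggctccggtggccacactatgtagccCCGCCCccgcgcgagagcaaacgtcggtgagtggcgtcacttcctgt
Rpl14: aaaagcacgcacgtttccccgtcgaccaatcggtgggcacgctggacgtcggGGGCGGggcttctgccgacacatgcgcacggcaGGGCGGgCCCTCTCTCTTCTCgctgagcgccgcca
Rpl19: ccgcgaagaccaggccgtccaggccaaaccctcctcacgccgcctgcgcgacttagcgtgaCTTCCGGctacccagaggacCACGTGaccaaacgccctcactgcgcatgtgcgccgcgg
Rpl28: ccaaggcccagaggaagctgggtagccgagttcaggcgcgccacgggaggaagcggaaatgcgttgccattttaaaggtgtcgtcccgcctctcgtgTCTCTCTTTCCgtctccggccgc
Rplp2: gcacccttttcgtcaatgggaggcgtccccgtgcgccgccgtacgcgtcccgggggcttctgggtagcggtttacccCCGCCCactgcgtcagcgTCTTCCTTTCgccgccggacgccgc
Rpl10l: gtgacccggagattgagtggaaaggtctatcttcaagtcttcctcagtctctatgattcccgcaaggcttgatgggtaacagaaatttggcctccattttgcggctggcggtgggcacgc
The windows lie at chr7:116334171-116334290 (minus strand) for Rps13, chr9:120571417-120571536 (plus strand) for Rpl14, chr11:98026610-98026729 (plus strand) for Rpl19, chr7:4792865-4792984 (plus strand) for Rpl28, chr7:141447551-141447670 (plus strand) for Rplp2 and chr12:66284382-66284501 (minus strand) for Rpl10l.

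Short motifs were counted over the 300 bases from 250 before to 50 after the start, on both strands. Shares are of genes, and a gene counted if any of its RefSeq starts had a match. CCGGAAG, the core bound by ETS factors such as GABPA, occurred in the promoters of 25 of 62 members (40.32%, exact 95% interval 28.05 to 53.55%) and of 12.95% of all 17492 genes with a RefSeq start. AAGATGG, the core bound by YY1, occurred in 16.13% of member promoters (8.015 to 27.67%) and 7.18% of all. GGGCGG, bound by the SP family, occurred in 59.68% against 49.23%, GCATGCG of NRF1 in 8.065% against 4.957%, the E-box CACGTG in 9.677% against 8.913%, and TATAAA in 11.29% against 14.8%. The share with an E-box was the closest to that of all promoters, and TATAAA was the motif with a lower share in members than in all promoters.

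A run of 5 or more pyrimidines covering any annotated start on the gene strand was found at 22 of 62 members (35.48%) and at 10.18% of all genes with a start. The 69 mitochondrial ribosomal protein genes with a start serve the separate ribosome of that organelle. Of these genes, 37.68% held CCGGAAG and 18.84% AAGATGG, but only 5.797% began in such a run. The longest runs were at Rpl7a (21 bases), Rpl34 and Rpl27a (20 bases each). The annotated start of Rps13 fell at a run of 1 base and that of Rpl19 at none, and a start set a few bases away would change this count. The median ratio of observed to expected CpG was 0.863 in member promoters, 0.8182 in those of mitochondrial ribosomal protein genes and 0.5639 over all. Median GC content was nearly equal in members and all genes (56.83% and 56.33%). The H3K4me3 tags per M summed over peaks within 5 kb of either gene end had a median of 109.0 in the 25 members with CCGGAAG. In the 37 members without it the median was 121.3, with wide overlap between the groups. A match to these letters is a description and does not show that the factor was bound.

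Peaks came from 1 list per library, with a depth of 12.93 to 61.76 M tags (M, 1000000) after removal of duplicates. For each gene, the tags of all peaks within 5 kb of either end were summed and scaled to 1000000 filtered tags of the library (tags per M), and the width of the widest such peak was taken. The MM-401 libraries had longer tags (57 to 60 bp against 50 or 51 bp) and a shallower input (12.23 M tags against 36.62 for the untreated and 54.95 for the 4-OHT libraries), so these differences cannot be told apart from the treatment. Duplicate removal kept at most 1 tag per position and strand, and the redundant rate of the H3K4me3 libraries was 0.6 untreated, 0.42 after MM-401 and 0.67 after 4-OHT. Of the members, 62 shared an H3K4me3 peak in the window with another protein-coding gene, so part of their tags may belong to a neighbour.

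In untreated cells every member had H3K4me3 and H3K4me2 peaks, and 81 of 82 had H3K4me1; of all protein-coding genes 75.39, 79.17 and 79.39% had these marks. The H3K4me3 tags of the members ranged from 1.504 to 249.5 per M, with a median of 116.9, and those of the 16501 genes with a peak had a median of 49.51. Per kb of peak, the median H3K4me3 level was 17.97 tags per M in members and 12.23 in all genes with a peak. The widest H3K4me3 peak had a median of 5260 bp in members and 2844 bp in all genes. Thus 78 of 82 members lay above the all-gene median for H3K4me3 tags and 80 of 82 above it for width, although the windows of members, being shorter genes, covered less sequence.

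H3K4me2 and H3K4me1 were also higher per kb, and their peaks wider, in the median member than in the median of all genes with a peak. The median H3K4me2 level was 6.73 tags per M per kb of peak in members and 5.146 in all genes, with widest peaks of 7607 and 3618 bp. For H3K4me1 the median levels were 2.504 and 2.085 tags per M per kb, with widest peaks of 6028 and 3426 bp. The subunits differed little from each other in H3K4me3, with medians of 19.13 tags per M per kb in the small subunit, 17.58 in the large and 16.71 in the 3 stalk genes. Mitochondrial ribosomal protein genes had a similar H3K4me3 level per kb (17.32) on peaks of 2909 bp, so in width, not in tags per kb, they were apart from the cytosolic genes. Genes of elongation and initiation factors (17.62 tags per M per kb, 5033 bp) and of ribosome biogenesis (15.78, 4370 bp) were closer to the cytosolic genes in width.

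**Figure D1:**
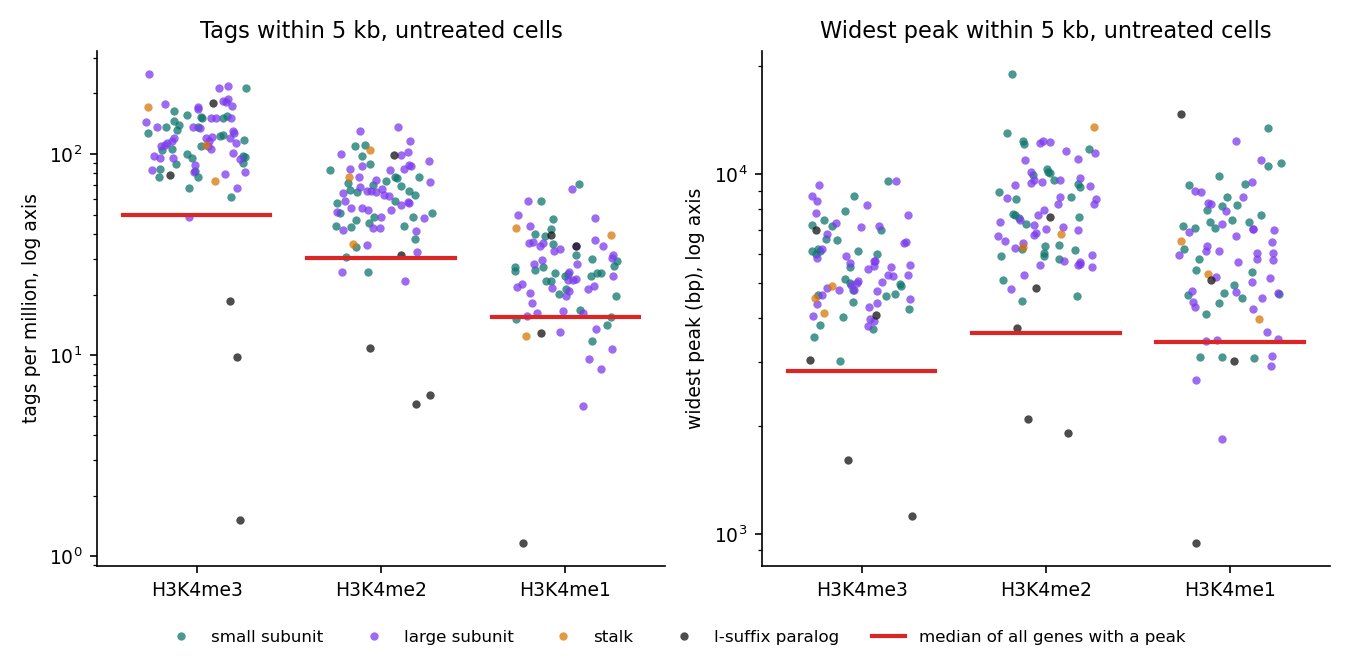
Tags per M (left) and width of the widest peak in bp (right) within 5 kb of each of the 82 genes in untreated cells, both on log axes, for the 3 marks; each point is 1 gene coloured by subunit, black points are the l-suffix paralogs, and the red line is the median of all genes with a peak. For H3K4me3, 78 of 82 points lie above the red line on the left and the lowest points are paralogs.

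The highest H3K4me3 sums of tags stood at Rpl23a (249.5 tags per M, 95% interval 243.3 to 255.7, on a widest peak of 9371 bp), Rpl4 (217.3) and Rpl13a (214.1), all proteins of the large subunit. Per kb of peak these 3 genes had 20.03, 22.99 and 19.71 tags per M, so their large sums came with broad or several peaks. Rpl32 (25.89), Rpl3 (24.96) and Rps6 (24.92), the small-subunit protein phosphorylated downstream of mTOR, were the highest per kb. Rps6 had 100.2 tags per M in untreated, 123.9 in MM-401 and 109.3 in 4-OHT cells, on peaks of 4021, 4364 and 4069 bp in the same order; the untreated peak was narrower than the member median of 5260 bp.

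The lowest members were 3 of the 5 paralogs with an l suffix: Rpl32l (mm10 chr10:20208439-20209030) with 1.504 H3K4me3 tags per M, Rpl39l (chr16:10170197-10174911) with 9.776 and Rpl10l (chr12:66283379-66284401) with 18.48. Rpl10l and Rpl39l are known as copies used in the testis, and Rpl10l takes the place of the X-linked Rpl10 when that chromosome is silenced in male germ cells. Per kb of peak these 3 genes had 1.34, 6.102 and 6.062 tags per M, below every other member. Rpl3l, a copy of Rpl3 known from heart and skeletal muscle, appeared high at 180.1 tags per M, but its window reaches the peak of the neighbouring member Rps2. The peak over the start of Rpl3l itself held 4.393 tags per M over 1357 bp, against 150.2 over 7026 bp at the start of Rps2. Rps27l, a copy of Rps27 that p53 is known to induce, had 78.92 tags per M and 19.43 per kb, a level like that of the other members.

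The median of the 4 X-linked members lay below that of all members in all 3 marks. Their median levels were 15.68, 4.337 and 1.468 tags per M per kb for H3K4me3, H3K4me2 and H3K4me1, against 17.97, 6.73 and 2.504 over all members. Rpl36a had 11.08 H3K4me3 tags per M per kb, Rps4x 14.21, Rpl10 17.14 and Rpl39 18.56, so in H3K4me3 the X-linked genes overlapped the autosomal ones. In H3K4me1, Rpl36a (1.445), Rps4x (1.462) and Rpl39 (1.473) were the 3 lowest members after Rpl10l.

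At 61 of the 62 annotated starts (66.02% of all starts) the start itself lay inside an H3K4me3 peak in untreated cells; the exception was Rpl32l. These peaks were lopsided: their median reached 1407 bp upstream and 3715 bp downstream of the start, against 1048 and 1614 bp over the 11548 genes with such a peak. In 39 of 61 members (63.93%) the peak ran past the annotated end of the gene, against 3.81% of all genes, whose median distance from start to end was 22644 bp and that of the members 3174 bp. The summit of the peak was 358 bp downstream of the start in the median member. H3K4me2 reached further, with a median downstream edge at 5242 bp and a summit 1066 bp downstream, and passed the gene end in 58 of 62 members (6.096% of all genes). Most members were therefore covered by H3K4me2 over their whole length.

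H3K4me1 was arranged around the start, not over it. Among starts with an H3K4me3 peak, 19 of 61 members (31.15%) also had the start inside an H3K4me1 peak, against 55.42% of all genes. At the 42 members whose start lay outside, the nearest H3K4me1 peak upstream began a median of 237 bp away and the nearest downstream 679 bp away; over all genes these gaps were 225 and 357 bp. The gap was thus longer on the downstream side, where the summits of H3K4me3 and H3K4me2 lay. Of the width of the H3K4me3 peak over the start, a median of 83.64% was also under an H3K4me1 peak, against 90.36% over all genes.

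**Figure D2:**
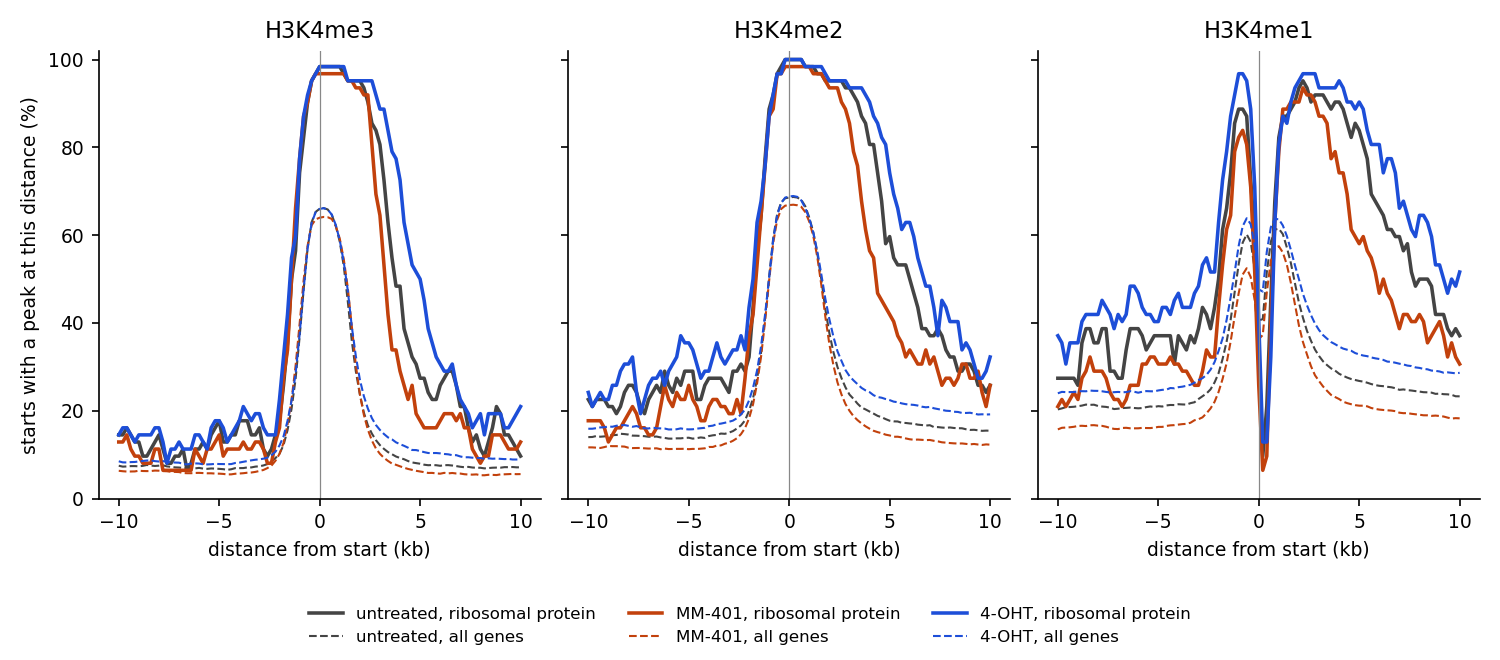
Percent of starts with a peak at each distance from the start (kb, negative upstream), in 3 panels for H3K4me3, H3K4me2 and H3K4me1; solid lines are the 62 ribosomal protein genes with a RefSeq start, dashed lines all 17492 genes with one, and colours give the condition. The solid lines fall off further downstream than the dashed ones, in the order MM-401, untreated, 4-OHT. H3K4me1 dips near the start, and its solid lines are lowest just downstream of the start.

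After MM-401, H3K4me3 tags per M at the members were higher than in untreated cells by a median log2 ratio of 0.30, against 0.12 over the 15699 genes with a peak in both lists. The ratio was above 0 at 76 of 81 members and 66.6% of all genes, or at 73 of 81 and 60.1% when libraries were scaled to their tags in peaks, and 66 of 81 members lay above the all-gene median. No member was 1.5-fold or more higher and none that much lower, where 1.63% of all genes were higher and 6.87% lower by that size. The counting interval lay wholly above 0 for 73 members (48.5% of all genes) and wholly below for 1 (18.9% of all genes); members held more tags than most genes, which narrows their intervals. Small-subunit genes had a median of 0.37, large-subunit genes of 0.22, and the 3 stalk genes of 0.40. Genes of mitochondrial ribosomal proteins (0.29), elongation and initiation (0.29) and ribosome biogenesis (0.31) had medians close to that of the members.

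Rplp1, an acidic protein of the stalk, was the highest, with 73.3 tags per M untreated, 108.9 after MM-401 and 84.77 after 4-OHT. Its log2 ratio after MM-401 was 0.57 (95% interval 0.47 to 0.67). Rps25 followed with 105.0, 149.1 and 120.6 tags per M. In both genes the MM-401 library was the highest of the 3. At the other end stood Rpl10l, with 18.48 tags per M untreated, 15.09 after MM-401 and 23.85 after 4-OHT, a log2 ratio of -0.29 (-0.54 to -0.049) after MM-401. Rpl39l (9.776, 8.123 and 12.46 tags per M) was also lower after MM-401, with an interval that included 0. The single H3K4me3 peak near Rpl32l (38 tags) was not called after MM-401, where 4.86% of all genes lost their peaks, and was present with 56 tags after 4-OHT. The H3K4me3 peak over the start of Rpl3l (111 tags untreated) was also not called after MM-401 and held 119 tags after 4-OHT, although the Rpl3l window still held the peak of Rps2. In no other member did the window lose all its H3K4me3 peaks or gain a first one after MM-401, and in none after 4-OHT, where 0.988% of genes with a peak lost it and 2.91% of those without gained one.

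While tags were higher after MM-401, the peaks were not wider. The widest H3K4me3 peak had a median log2 ratio of -0.055 in members and 0.05 in all genes, and tags per M per kb of peak a median of 0.40 against 0.14. One member, Rpl12, was 1.5-fold or more wider (2.24% of all genes) and 5 were that much narrower (1.18% of all genes). Rpl35a went from 8713 to 4447 bp, with 1 peak in its window untreated and 2 after MM-401, and Rpl17, Rpl5, Rps24 and Rpl29 were the others. By the summed width of all peaks in the window, 4 of 81 members were that much narrower, against 981 of 15699 genes. The median log2 ratios of summed width were -0.098 and -0.003. The narrowing was on the downstream side: the downstream edge of the start peak had a median of 3244 bp after MM-401, lay nearer to the start at 43 of 60 members (38.5% of all genes), and moved by a median of -278 bp against 59 bp over all genes. In 29 of 60 members the peak still passed the gene end (3.905% of all genes). The peak over the start of Rpl22, long in untreated cells, ended 7823 bp downstream there and 5386 bp downstream after MM-401. The MM-401 H3K4me3 library had 12.93 M tags against 25.27 M untreated, and the part of depth in the edges was not tested. The share of positions in the start peak that held a tag had a median of 24.55% in untreated members and 16.73% after MM-401, and the part of this ceiling in the ratio of tags was not tested either.

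After 4-OHT, H3K4me3 tags per M were higher than untreated at 82 of 82 members and 53.3% of all genes, by a median log2 ratio of 0.18 against 0.011 over 16338 genes. When libraries were scaled to their tags in peaks, they were higher at 75 of 82 members, with a median of 0.097, and at 30.1% of all genes. No member reached 1.5-fold, where 2.55% of all genes were that much higher and 1.71% lower. The counting interval lay wholly above 0 for 77 of the 82 (25.2% of all genes) and wholly below for none (15% of all genes). The highest was Rpl29, with 81.77 tags per M untreated, 83.71 after MM-401 and 116.6 after 4-OHT, a log2 ratio of 0.51 (0.43 to 0.59) after 4-OHT. Rpl32l came next at 0.50, from 38 to 56 tags, with an interval that included 0. Rplp0 (chr5:115559467-115563729), which anchors the stalk to the ribosome, had 111.3, 146.3 and 148.5 tags per M. Rps27l (78.92, 106.6 and 79.7), Fau (154.4, 199.4 and 159.4) and Rpl41 (109.0, 151.3 and 112.7) were the closest to no difference after 4-OHT, each with an interval that included 0. The median of mitochondrial ribosomal protein genes was 0.059 here, and those of elongation and initiation and of ribosome biogenesis were 0.17 each.

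The H3K4me3 peaks of the members were also wider after 4-OHT, in 81 of 82 members and 66.9% of all genes, by a median log2 ratio of 0.16 against 0.053 over all genes. A widest peak 1.5-fold or more wider was seen at 7 members (5.13% of all genes), among them Rplp0, Rpl38, Rps28, Rps15, Rpl12 and Rpl7a. By the summed width of all peaks in the window, 2 of 82 members reached that size, against 957 of 16338 genes. The median log2 ratios of summed width were 0.16 and 0.065. The widest peak at Rplp0 measured 4528 bp untreated, 4031 bp after MM-401 and 11847 bp after 4-OHT, and the summit of this peak lay 6189 bp downstream of the Rplp0 start after 4-OHT and 180 bp downstream untreated. The Rplp0 window held 4 H3K4me3 peaks untreated and 2 after 4-OHT. Tags per M per kb of peak had a median log2 ratio of 0.016, against -0.072 over all genes, and the ratio was above 0 at 46 of 82 members and 5082 of 16338 genes. Per filtered tag, the higher tags thus came with wider peaks of nearly level density, while density was lower in the median of all genes. Scaling to tags in peaks moved the median tag ratio of all genes by -0.086, and density was not recomputed under it. The downstream edge of the start peak had a median of 4608 bp and lay further out at 58 of 61 members (67.3% of all genes), by a median of 523 bp against 68 bp over all genes. The peak then passed the gene end in 52 of 61 members (4.609% of all genes).

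After 4-OHT, genes of translation factors and of ribosome biogenesis had start peaks whose ends lay further out by amounts like that of the members. The downstream edge moved out by a median of 646 bp in 23 elongation and initiation genes and 590 bp in 24 ribosome biogenesis genes, and by 171 bp in the 69 mitochondrial ribosomal protein genes. After MM-401 the medians were -201, 1 and 141 bp, against -278 bp in the members, so only the elongation and initiation genes among these lists also had ends nearer to the start in the median. Rps6, Rps2 and Rps3 were the 3 members whose H3K4me3 edge did not move out after 4-OHT, by -55, -4 and -34 bp. The 4-OHT and untreated H3K4me3 libraries had similar depths of 26.41 and 25.27 M tags, but the input behind the peak calls was deeper after 4-OHT (54.95 against 36.62 M tags), and its part in the edges was not tested.

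**Figure D3:**
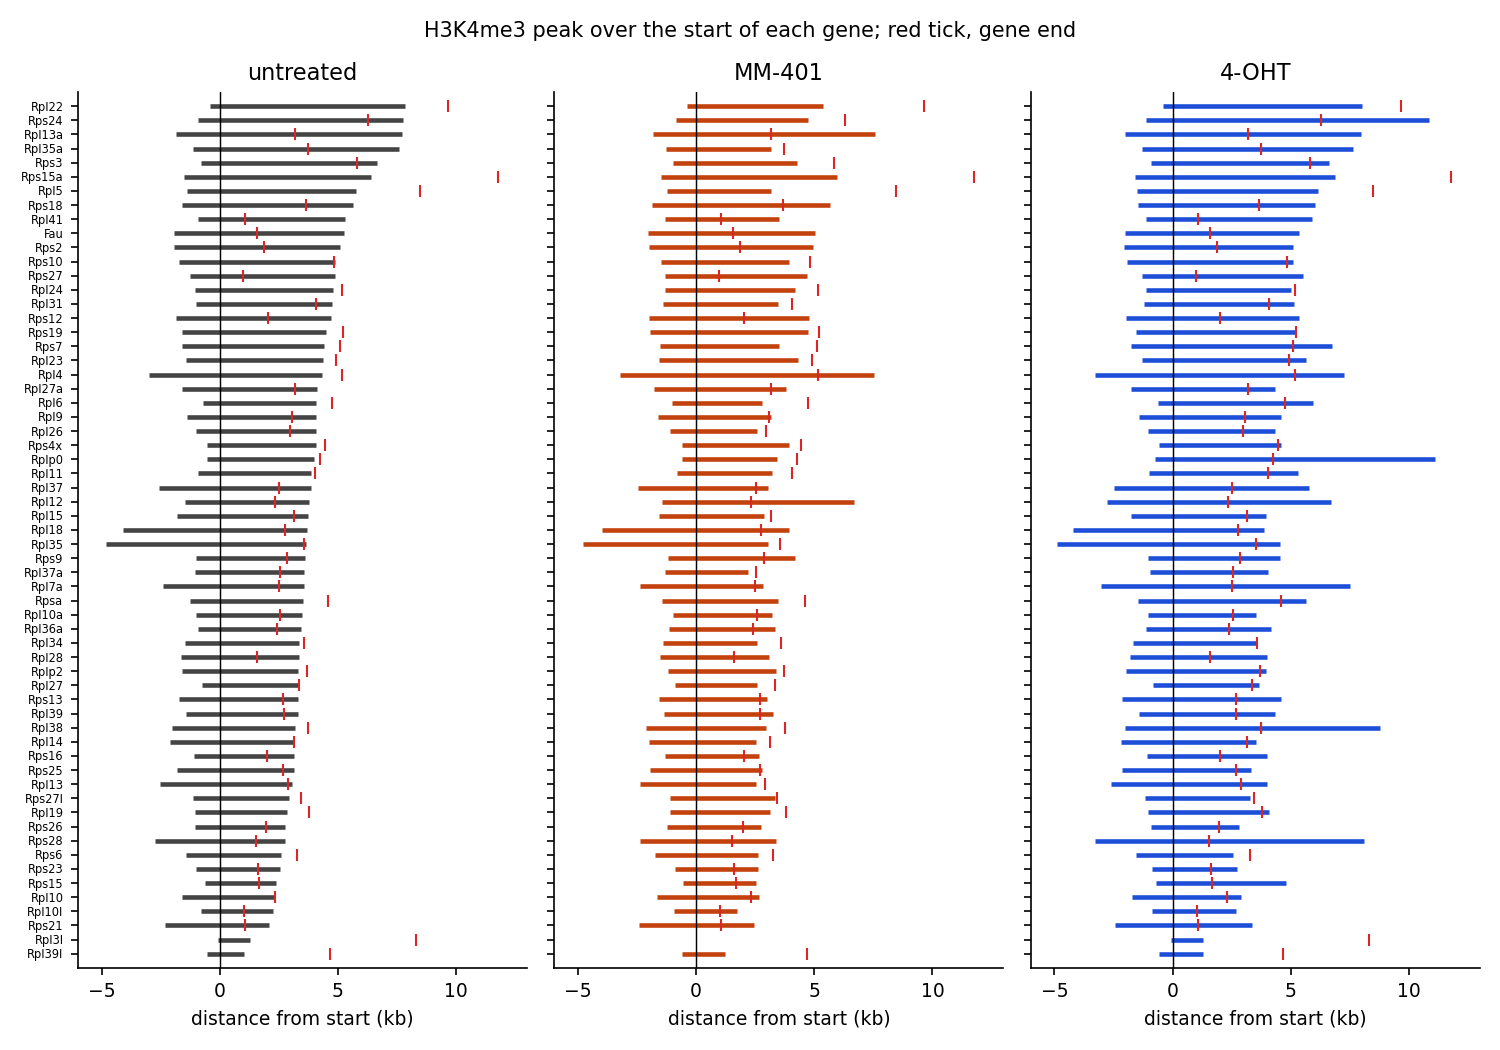
Span of the H3K4me3 peak over the start of each ribosomal protein gene, in kb from the start (negative upstream), in untreated, MM-401 and 4-OHT cells; each bar is 1 gene, in the order of the untreated downstream edge, and the red tick is the annotated gene end. The bars end at a median of 3715 bp untreated, 3244 bp after MM-401 and 4608 bp after 4-OHT, and Rpl3l has no bar after MM-401.

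H3K4me2 tags at the members were nearly level after both treatments. After MM-401 the median log2 ratio was -0.005 against 0.12 over all genes, and 22 of 82 members lay above the all-gene median. None was 1.5-fold or more higher (2.14% of all genes) and 3 were that much lower (3.47% of all genes). These were Rpl32l, with 5.717 tags per M untreated, 2.726 after MM-401 and 17.87 after 4-OHT, Rpl18 (129.4, 73.55 and 130.9) and Rpl6 (42.74, 27.21 and 48.33). For Rpl18 and Rpl6, both of the large subunit, the MM-401 library stood apart from the other libraries. The highest were Rps21 (50.83, 63.5 and 57.45 tags per M), Rps29 (30.71, 37.81 and 33.86) and Rps19 (76.59, 93.69 and 78.42), the protein known from Diamond-Blackfan anaemia.

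H3K4me2 peaks were narrower at 70 of 82 members and 58.2% of all genes after MM-401, with a median log2 ratio of -0.14 against -0.024, none was 1.5-fold or more wider (2.57% of all genes) and 11 were 1.5-fold or more narrower (4.33% of all genes). The widest peak at Rplp0 went from 13527 to 7104 bp and that at Rpsa, the laminin receptor protein of the small subunit, from 9984 to 5471 bp. By the summed width of all peaks in the window, 5 of 82 members were 1.5-fold or more narrower, against 1778 of 16649 genes. The median log2 ratios of summed width were -0.139 and -0.091, so the larger share of strongly narrowed members held for the widest peak only. The downstream edge of the start peak was nearer at 53 of 61 members (56.6% of all genes), by a median of -580 bp against -31 bp. The MM-401 H3K4me2 library held 19.81 M tags and the untreated one 40.06 M. No member lost or gained H3K4me2 after MM-401 (3.92% and 0.636% of genes) or after 4-OHT (0.733% and 4.76%).

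After 4-OHT the members' median H3K4me2 log2 ratio was 0.072 against 0.023 over all genes, and it turned to -0.053 when libraries were scaled to their tags in peaks, a scaling that moved the median of all genes by -0.13. Only Rpl32l was 1.5-fold or more higher (4.21% of all genes) and none that much lower (1.59%), at 1.64 (1.43 to 1.86) on the log2 scale, with its widest peak going from 1915 to 7271 bp. It was also the 1 member whose widest peak was 1.5-fold or more wider (9.18% of all genes), and none was that much narrower (1.23%). Rpl27 (41.24 tags per M untreated, 39.22 after MM-401, 54.44 after 4-OHT) and Rpl10l (10.86, 10.45 and 14.12) came next. Rpl3 (84.58, 96.27 and 79.16), Rpl13 (58.34, 55.98 and 54.96) and Rpl10 (25.96, 27.31 and 24.58) were lowest. The H3K4me2 edge lay further downstream at 56 of 62 members (63.6% of all genes), by a median of 408 bp against 63 bp.

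**Figure D4:**
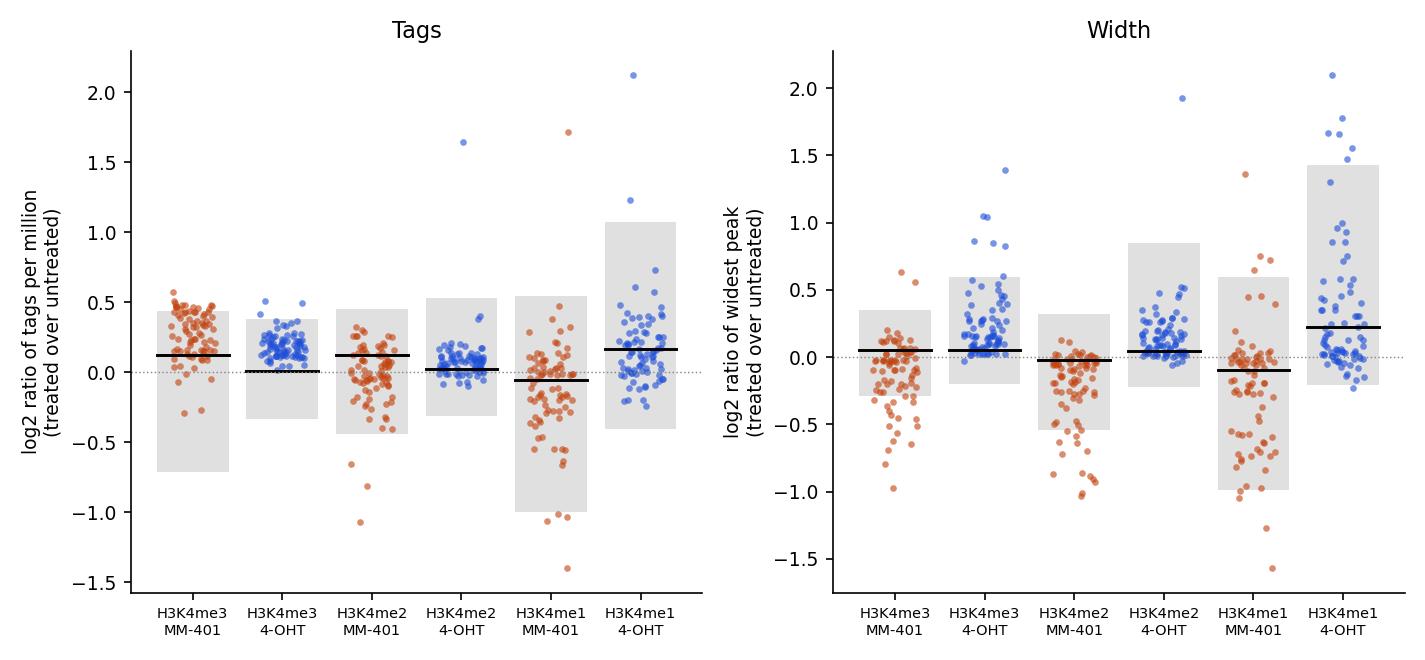
Log2 ratio, treated over untreated, of tags per M (left) and of the width of the widest peak (right) for each ribosomal protein gene with a peak in both lists; points are genes, the black line is the median over all protein-coding genes and the grey band runs from their 5th to their 95th percentile. H3K4me3 after 4-OHT has 82 of 82 points above 0 on the left, and the members lie mostly inside the grey bands.

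H3K4me1 was the mark in which single members differed most. After MM-401 the median log2 ratio was -0.078 against -0.057 over all genes, and it turned to 0.045 when libraries were scaled to their tags in peaks, which moved the median of all genes by 0.12. One member was 1.5-fold or more higher (4.3% of all genes) and 6 were that much lower (13.6% of all genes). Rpl36a (chrX:134585654-134588062) had 8.542 tags per M untreated, 3.241 after MM-401 and 10.38 after 4-OHT, a log2 ratio of -1.40 (-1.79 to -1.03) after MM-401. Rpl15 (9.599, 4.591 and 9.149), Rpl6 (19.55, 9.542 and 24.69) and Rpl23a (67.03, 33.22 and 64.35) followed, each with the MM-401 library lowest; Rpl7 and Rps9 were the others. Rpl6 was thus among the lowest members after MM-401 in both H3K4me2 and H3K4me1.

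Rpl10l was the member with more H3K4me1, at 1.166 tags per M untreated, 3.826 after MM-401 and 5.068 after 4-OHT. These are 43, 85 and 313 tags, and its log2 ratios were 1.71 (1.17 to 2.28) under MM-401 and 2.12 (1.66 to 2.62) under 4-OHT. Rpl19 (47.89, 62.47 and 41.53 tags per M) was also among the 3 highest ratios after MM-401. Rpl39l, without an H3K4me1 peak in untreated and MM-401 cells, had one of 86 tags after 4-OHT, in the deepest library of all; it was the 1 member to gain a peak there (7.87% of genes without one did). No member lost H3K4me1, as 5.54% of genes did after MM-401 and 0.725% after 4-OHT. The widest H3K4me1 peak was 1.5-fold or more narrower after MM-401 at 19 of 81 members (15.1% of all genes) and wider at 4 (5.09%). The MM-401 H3K4me1 library held 22.22 M tags and the untreated one 36.88 M, and the part of depth in these widths was not tested.

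After 4-OHT the median H3K4me1 log2 ratio of the members was 0.14 against 0.16 over all genes, and 36 of 81 lay above the all-gene median. A ratio of 1.5-fold or more was seen at 4 members (15.9% of all genes): Rpl10l, Rps25, Rpl8 and Rpl24; none was that much lower (2.78%). Rps25 (chr9:44407714-44410406) had 23.48 tags per M untreated, 16.02 after MM-401 and 55.0 after 4-OHT, as its widest peak went from 5812 to 18458 bp. Rpl8 (37.5, 32.81 and 62.16 tags per M) showed a peak of 20041 bp after 4-OHT and 5831 bp untreated. Rpl3, Rpl19 and Rpl13a were lowest, at -0.24, -0.21 and -0.20. Widths of 1.5-fold or more were found at 14 of 81 members (27.7% of all genes), with none that much narrower (1.93%), and at 39 of 78 mitochondrial ribosomal protein genes and 17 of 31 elongation and initiation genes. The 4-OHT H3K4me1 library held 61.76 M tags against 36.88 M untreated, and the part of depth in these widths was not tested either. The start lay in an H3K4me1 peak at 20 of 62 members untreated (40.58% of all genes), 16 of 62 after MM-401 (36.31%) and 25 of 62 after 4-OHT (47.66%), so members and all genes moved the same way.

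Rpl5 and Rpl11, which with 5S ribosomal RNA bind Mdm2 and so link ribosome assembly to p53, are large-subunit proteins. Rpl5 had 113.3 H3K4me3 tags per M untreated, 123.2 after MM-401 and 125.6 after 4-OHT, and Rpl11 had 97.99, 108.9 and 115.7. Their H3K4me2 log2 ratios after MM-401 were -0.39 (-0.52 to -0.27) and -0.40 (-0.53 to -0.28). Rpl10, whose protein is needed for joining of the subunits, had 68.07, 85.1 and 72.96 H3K4me3 tags per M, and Rpsa 96.29, 134.0 and 121.7. In each of the 4 genes the untreated library was the lowest for H3K4me3, as it was in most members. Tags were higher than untreated at 76 of 81 members after MM-401 (66.6% of all genes) and 82 of 82 after 4-OHT (53.3%).

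Mll1 peaks in untreated cells were few and weak in the whole list (4004 peaks with a median of 11 tags). At the members, 22 Mll1 peaks of 9 to 20 tags lay within 5 kb of 19 genes, or 23.17% of the 82 (exact 95% interval 14.56 to 33.8%), against 9.193% of all protein-coding genes. Within 1 kb the shares were 12.2% and 4.254%. Genes of elongation and initiation (22.58%) and of ribosome biogenesis (9 of 30) had similar shares within 5 kb, and those of mitochondrial ribosomal proteins 14.1%. The false discovery rate that the peak caller gave these 22 peaks was 1.74 to 5.94%. It was lowest at the lowest-scoring peak (50.59, near Rplp2) and highest at the highest-scoring one (81.8, inside Rpl27a), so it does not rank them by strength. Of the 22 peaks, 17 lay on all 3 marks, a share that was not taken over all Mll1 peaks. None of the 22 was near an l-suffix or X-linked member.

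The start itself was under an Mll1 peak at Rps13 (chr7:116334112-116334288, 12 tags), Rpl14 (chr9:120571417-120571604, 12 tags) and Rpl19 (chr11:98026701-98026846, 10 tags), the genes whose windows are printed above. The strongest by tags was a peak of 20 tags 2303 bp downstream of the Rpl28 start, followed by 18 tags at 722 bp inside Rps3 and 16 tags at 1637 bp inside Rpl27a. Other peaks lay within 1 kb upstream of Rps15, Rps21 and Rps16, inside Rpl7, Rpl32 and Rps19, and outside Rpl31, Rpl23a, Rpl38, Rps23, Rpl30, Rpl35 and Rplp2; Rps13 and Rpl14 each had a further one. Members with an Mll1 peak differed little from the rest in the treated cells. The median H3K4me3 log2 ratio after MM-401 was 0.33 in the 19 with a peak and 0.27 in the 62 without, and after 4-OHT it was 0.18 in both. For H3K4me1 after MM-401 the medians were -0.009 and -0.11, and after 4-OHT 0.13 and 0.15.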

How the data were processed

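Peak lists of 10 precipitated libraries were used; the 4 inputs entered only as controls of the peak calls. The submitters' processing notes name Bowtie2, SAMtools 1.5, MACS2 and build mm10, whereas per the file headers MACS 1.4.2 called the peaks, per library, at a p cutoff of 1e-05 after duplicate removal. The deposited counts are numbers of tags per peak. The deposited score, a multiple of −log10 of each peak's p-value, ranked peaks and set stricter cuts, the percent is the false discovery rate the authors deposited per peak, and the deposited fold enrichment ratio was not used. The deposited width of each peak is in bp.

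Counts were summed over peaks within 5 kb of either gene end and divided by the filtered tags of each header. Gene positions, promoters and starts came from RefSeq tables (GRCm38.p6). With 1 library per group no test between groups was made; intervals are exact, at 95%: Poisson for tags, conditional binomial for ratios and Clopper-Pearson for shares, and they cover counting error only. Assignment of peaks and coverage of intervals were tested on simulated data. Start measures used the peak over the RefSeq start. Calculations used Python 3.11.15, pandas 2.3.3, numpy 2.4.6 and scipy 1.17.1.

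Full values were given, apart from some items that are not reported here, for the 3 highest and 3 lowest members per comparison with 50 or more tags in either library, the 3 highest and lowest for untreated H3K4me3, members with an Mll1 peak or with H3K4me3 in some lists only, and Rplp0, Rpsa, Fau, Rps6, Rpl10 and Rps19. Members and gene lists were chosen with earlier results of these data known. Alternatives covered the window, the peaks used, scaling, score, list length, members, tag minimum and fold.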

Additional observations from a re-analysis of the deposited data

How the results depend on the processing

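For the 43 results, 227 values were recomputed under an alternative, of which 187 were kept, 38 moved and 2 reversed. A median was kept if it stayed within a range set by the spread among the member genes. That range served as a tolerance only and is not a measure of counting error. A count was kept if it stayed within 1.5 times the main count. The cause of the moves and reversals was not tested except where the setting leaves fewer genes. No paired analysis was possible because each group had 1 library, and for the same reason no replicate could be left out. Scaling to tags in peaks reversed the medians of H3K4me2 after 4-OHT (-0.053) and H3K4me1 after MM-401 (0.045, with 2 members higher by the fold), and moved the medians of H3K4me3 after 4-OHT to 0.097 and of H3K4me1 after 4-OHT to 0.064. With only the 20 members that share no peak (19 for H3K4me1), the medians were 0.24 for H3K4me3 and 0.12 for H3K4me2 after 4-OHT, -0.069 for H3K4me2 and -0.25 for H3K4me1 after MM-401, with 1 member lower by the fold in the last and 1 higher in H3K4me1 after 4-OHT.

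In a window of 1 kb, members 1.5-fold or more higher numbered 2 for H3K4me3 after MM-401, 4 for H3K4me3, 0 for H3K4me2 and 15 for H3K4me1 after 4-OHT, and 3 for H3K4me1 after MM-401. Those lower numbered 1 for H3K4me2 and 11 for H3K4me1 after MM-401, 0 members lost H3K4me3 and 1 lost H3K4me2 after MM-401, and the untreated H3K4me1 median was 20.8 tags per M. With only the highest-scoring peak, higher members numbered 3 for H3K4me3 and 7 for H3K4me1 after MM-401, and 5 for H3K4me3 and 11 for H3K4me1 after 4-OHT; lower ones numbered 1 for H3K4me3 after 4-OHT, and 6 for H3K4me2 and 10 for H3K4me1 after MM-401.

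At 2-fold, 1 member was lower in H3K4me2 after MM-401 and 2 were higher in H3K4me1 after 4-OHT. A score of 100 or more gave 13 members lower in H3K4me1 after MM-401. Lists of equal length gave 0 higher and 1 gained there, and 0 lost in H3K4me3 after MM-401; joining peaks over 1 kb gave a width median of -0.27 for H3K4me1 after MM-401. An alternative chosen after seeing the data, the peak over the start alone, gave 2 and 5 members higher in H3K4me3 after MM-401 and 4-OHT, 5 lower in H3K4me2 after MM-401, 0 higher in H3K4me2 after 4-OHT and 0 lower in H3K4me1 after MM-401. The median moves of the start peak's downstream edge kept their sign when peaks were joined over 1 kb or when only members sharing no peak were used, both also chosen after seeing the data.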
